A study of Drosophila melanogaster with 2 samples.

Results

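Intronic peaks far from starts are binding regions of CG14667-eGFP whose summit lay inside a gene, in no exon of any gene and over 1000 bp from every annotated transcription start. They were taken from the conservative peak list on the chromosome arms of dm6 with Ensembl release 115, and they numbered 868 of 3029 peaks (28.7%). The other peaks on the arms were 1383 promoter peaks (summit within 500 bp of a start), 390 intergenic peaks over 1000 bp from every start, 325 peaks at 500 to 1000 bp from a start and 63 exonic peaks. The signal of a peak played no part in the choice beyond its presence in the list.

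The material was whole Drosophila melanogaster embryos of 0 to 24 h from the strain CG14667-GFP, which carries a transgene for a CG14667-eGFP fusion protein. Chromatin fragments of 200 to 800 bp were precipitated with an antibody against GFP in 2 biological replicates of 1 group. Strains without the transgene were not analysed here, and whole embryos mix all tissues and stages. Sequencing depth is unknown because the files hold peaks and no read counts. Peaks are not independent replicates, so p-values across them describe these 2 libraries.

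Introns of developmental genes in flies often hold enhancers, which are stretches of DNA that bind transcription factors and act on a promoter at a distance. They also hold alternative promoters, insulators and genes of their own. CG14667 encodes a protein with C2H2 zinc fingers, a fold that in many proteins reads DNA sequence. The members are described from the sequence under the summit outwards, to the intron and then to the host gene.

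The strongest intronic peaks show the base composition that recurs among the members, and 6 of them are printed here. Each line gives the 101 bp centred on the summit, 5′ to 3′ on the plus strand of dm6 (RefSeq sequence), and capitals mark the homeodomain core TAATTA, the TATA box TATAAA or an A/T word of 8 letters that passed the test described later, on either strand. The windows are chr2L:6612663-6612763 in CG11050, chrX:4910313-4910413 in CG32772, chrX:5918864-5918964 in CG3726, chrX:3742177-3742277 in Tlk, chr3L:14759470-14759570 in Trl and chr3L:3060741-3060841 in CG32486.
CG11050: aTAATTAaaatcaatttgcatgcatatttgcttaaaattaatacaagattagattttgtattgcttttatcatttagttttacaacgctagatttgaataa
CG32772: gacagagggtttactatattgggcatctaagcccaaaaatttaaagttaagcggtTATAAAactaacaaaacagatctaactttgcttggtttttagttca
CG3726: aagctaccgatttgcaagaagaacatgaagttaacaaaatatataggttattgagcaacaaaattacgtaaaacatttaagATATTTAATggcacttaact
Tlk: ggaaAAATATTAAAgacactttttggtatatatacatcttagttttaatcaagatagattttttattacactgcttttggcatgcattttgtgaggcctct
Trl: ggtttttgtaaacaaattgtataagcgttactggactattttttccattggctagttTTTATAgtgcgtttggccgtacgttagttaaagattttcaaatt
CG32486: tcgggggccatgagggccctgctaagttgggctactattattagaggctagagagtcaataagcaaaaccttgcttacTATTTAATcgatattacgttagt
GC content of these windows was 20.8% in CG11050, 32.7% in CG32772, 27.7% in CG3726, 28.7% in Tlk, 31.7% in Trl and 42.6% in CG32486. All 6 were below the mean of the flanks of the members, 44.5%.

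Most intronic peaks had a narrow A/T-rich core between G/C-richer shoulders. GC content of the 101 bp at the summit averaged 32.5%, against 44.5% in windows of the same size 300 bp to either side, a difference of -12.1 points (SE 0.385, n = 868 peaks). The summit was poorer in GC than its flanks in 739 peaks (85.1%), richer in 121 and equal in 8 (exact sign test, two-sided, p = 6.43e-109). Mean GC in 51-bp steps was 31.8% at the summit and 45.6% at 250 bp to the left, and it was down to 40.7% at 1000 bp to the left.

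The low-GC core was not seen at intronic candidates that missed the list. The ranked list of the series holds 43226 other candidates that meet the same location rule and overlap no conservative peak. These candidates were much weaker than the members, with a median signal of 19.3 against 106. This limit holds here and wherever the candidates serve as a reference below. Their GC content averaged 44.5% at the summit and 41.7% in the flanks, a difference of 2.83 points in the other direction, and their summit was poorer in GC than the flanks in 36.9% of cases. Promoter peaks also had a low-GC core, with 32.7% at the summit and 44.3% in the flanks (a difference of -11.7 points, SE 0.358). Intergenic peaks had 34.6% at the summit and 45.5% in the flanks (a difference of -10.9 points, SE 0.694). The shoulders differed in shape between the classes. At 1000 bp to the left the intronic peaks had 40.7%, the promoter peaks 45.0% and the intergenic peaks 40.5%. These differences between classes are descriptions and were not tested.

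**Figure D1:**
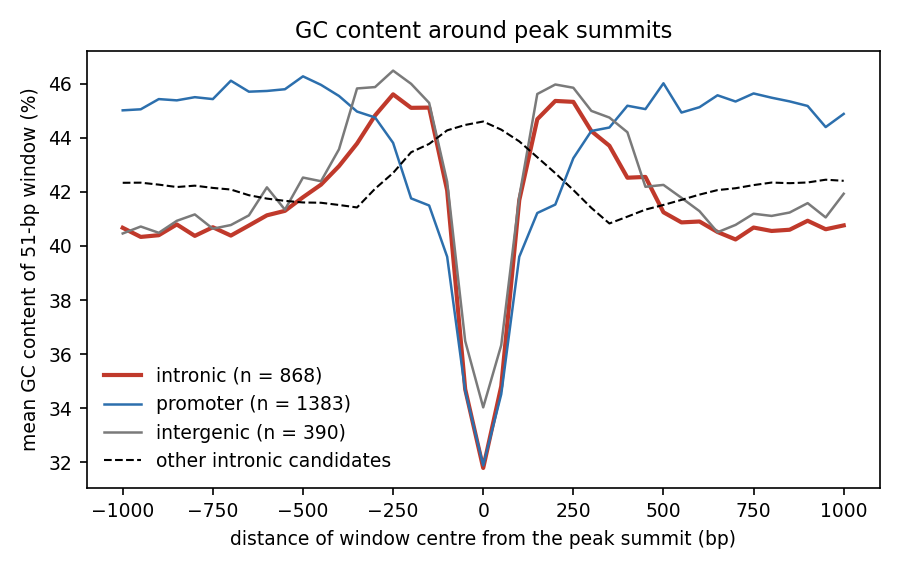
Mean GC content (%) of 51-bp windows against the distance of the window from the summit (bp), for intronic peaks, promoter peaks, intergenic peaks and the intronic candidates that missed the list. The 3 classes of listed peaks dip to between 31.8% and 34.0% at the summit, and the candidates stand at 44.6% there.

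Of 28 short motifs searched, the 2 called higher at the summit consist of A and T. Each motif was looked for on both strands in the 101 bp at the summit and in a control window of that size 300 bp upstream on the plus strand, and the pairs were compared by a two-sided exact McNemar test with Benjamini-Hochberg adjustment over the 28. The TATA box letters TATAAA, which in promoters bind the TATA-binding protein, lay in 201 summit windows (23.2%) and in 73 control windows (8.41%, exact test, adjusted p = 5.90e-16). The homeodomain core TAATTA, the A/T-rich site that many Hox-type factors bind, lay in 97 summit windows (11.2%) and in 43 control windows (4.95%, exact test, adjusted p = 1.87e-05). The other 26 motifs were not called higher at the summit, and TAATTA itself missed the threshold with peaks held to a global IDR of 0.001 or less (exact test, adjusted p = 0.0624). Besides CG11050, the strongest member with the homeodomain core was in NFAT, a transcription factor gene, at chrX:13640470-13640570.
NFAT: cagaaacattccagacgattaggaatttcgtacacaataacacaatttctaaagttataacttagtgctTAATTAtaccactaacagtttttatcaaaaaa

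The 5 motifs called lower at the summit each contain G or C. The CA repeat CACACACA lay in 7 summit windows (0.806%) and 47 control windows (5.41%, exact test, adjusted p = 3.21e-07). GAGAGAG, the site of the GAGA factor, lay in 4 summit windows (0.461%) and 27 control windows (3.11%, exact test, adjusted p = 0.000238). The bHLH E-box CAGCTG lay in 22 summit windows (2.53%) and 56 control windows (6.45%, exact test, adjusted p = 0.00073), and the Runt site ACCGCA in 10 summit windows (1.15%) and 36 control windows (4.15%, adjusted p = 0.00073). The twist-type E-box CACATG lay in 30 summit windows (3.46%) and 53 control windows (6.11%, exact test, adjusted p = 0.0467). The E-boxes and the Runt site lost their call under some of the alternatives, with adjusted p up to 0.502 for CAGCTG, 0.305 for ACCGCA and 0.682 for CACATG. In replicate 1's own list CAGCTG missed the threshold (exact test, adjusted p = 0.12), and in replicate 2's own list both CAGCTG (exact test, adjusted p = 0.174) and ACCGCA (0.305) did.

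Base composition differed between the windows compared, and its part in the motif counts was not tested. In the 149 members whose summit window was not poorer in GC than its control window, a split made after the values were seen, TATAAA lay in 14 summit windows (9.40%) and 24 control windows (16.1%). In the same 149 members TAATTA lay in 10 summit windows (6.71%) and 8 control windows (5.37%). In the other 719 members TATAAA lay in 187 summit windows (26.0%) and 49 control windows (6.82%). The split uses the GC of the control window itself, so it gathers A/T-rich control windows in the 149 members. The TATAAA share of control windows was 16.1% there and 8.41% over all members. These counts therefore cannot show the part of base composition.

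The clearest difference from promoter peaks was in CGATA, the element of the insulator protein BEAF-32. It lay in 89 intronic summit windows (10.3%) and 250 promoter summit windows (18.1%), an odds ratio of 0.518 (Fisher's exact test, two-sided, adjusted p = 9.06e-06). The intronic control windows held CGATA in 80 cases (9.22%), and their difference from the intronic summits was not called (exact McNemar test, adjusted p = 0.81). DRE, the element TATCGATA that contains CGATA and that the factor DREF binds at housekeeping promoters, lay in 1 intronic window (0.115%), in Spn on 3L, and in 26 promoter windows (1.88%, Fisher's exact test, adjusted p = 0.000941). With peaks held to a global IDR of 0.001 or less, neither was called (Fisher's exact test, adjusted p = 0.2 for CGATA and 0.221 for TATCGATA). Control windows were not counted for promoter peaks, and the classes differ in distance to starts by the rule. A difference at peaks thus cannot be told apart from a difference between introns and promoters at large. The other 26 motifs did not pass. TAATTA was found in 11.2% of intronic and 10.7% of promoter summits, and TATAAA in 23.2% of intronic and 26.2% of promoter summits. No motif differed from the intergenic peaks after adjustment (0 of 28 by Fisher's exact test, 5 at an unadjusted p under 0.05). The CTCF core AGNNGGCGC, for instance, lay in 14 intronic summits (1.61%) and 14 intergenic summits (3.59%, Fisher's exact test, adjusted p = 0.209).

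**Figure D2:**
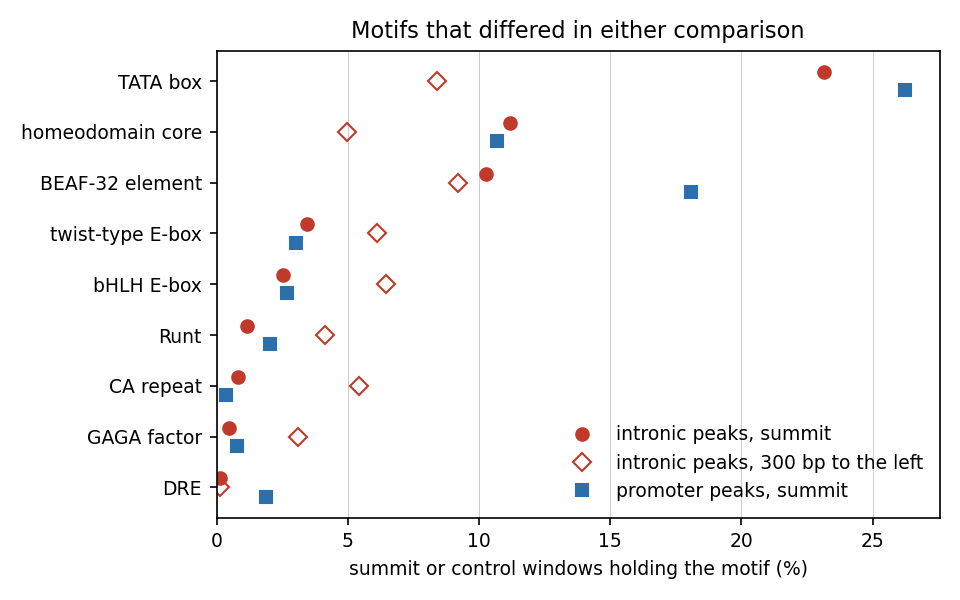
Share (%) of 101-bp windows that hold each motif that differed in either comparison, for intronic summits (filled circles), intronic control windows 300 bp to the left (open diamonds) and promoter summits (squares). TATAAA stands at 23.2% at intronic summits and 8.41% in control windows, and CGATA at 10.3% at intronic summits and 18.1% at promoter summits.

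Longer words were chosen from the members on X and both arms of chromosome 2, and then tested on 3L and 3R, where 349 members lie. All of the 10 words of 8 letters with the largest surplus on the ranking arms consisted of A and T, and 8 of them were more frequent at the summits of the other arms (exact McNemar test, adjusted over the 10). ATTTTAAA lay in 26 summit windows (7.45%) and 2 control windows (exact test, adjusted p = 3.03e-05), and ATATTTAA in 21 summit windows and 1 control window (exact test, adjusted p = 5.48e-05). ATTTAAAA lay in 27 summit windows and 8 control windows (exact test, adjusted p = 0.0044). Of 10 words of 6 letters with at least 2 G or C, an alternative chosen after seeing the data, 1 passed on 3L and 3R. This was AGCTTA, with 27 summit windows (7.74%) and 9 control windows (exact test, adjusted p = 0.021). Each of these words was absent from most members. Low GC at the summit favours A/T words on the tested arms as on the ranking arms, and holding out arms does not remove this. Its part in the counts was not tested. The A/T words also overlap one another in their letters, so the 8 that passed are not 8 separate results. The count of A/T words that passed was 9 with the list of replicate 1 and 0 with that of replicate 2, and it was 1 when summits in soft-masked sequence were left out.

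Intronic peaks were weaker than promoter peaks and close in signal to intergenic peaks. The signal is the peak caller's value against a control, on a scale that the sources used here do not give, and it serves only to rank peaks within the list. It ran from 2.55 to 1636 with a median of 106 (middle 50% from 78.8 to 152) in intronic peaks, against a median of 132 (89.4 to 227) in promoter peaks and 100 (75.8 to 151) in intergenic peaks. Above the median of all peaks on the arms lay 371 of 868 intronic peaks (42.7%, 95% Wilson interval 39.5 to 46.1) and 809 of 1383 promoter peaks (58.5%, 55.9 to 61.1). This gave an odds ratio of 0.53 by a two-sided Fisher's exact test (adjusted p = 2.77e-12). Among intergenic peaks the share was 153 of 390 (39.2%, 34.5 to 44.2), and its difference from the intronic share was not called (Fisher's exact test, odds ratio 1.16, adjusted p = 0.31). At a global IDR of 0.001 or less the shares were 39.6% of intronic and 44.0% of intergenic peaks (Fisher's exact test, adjusted p = 0.349). Of the 300 strongest peaks on the arms, 51 were intronic, 201 were at promoters and 13 were intergenic.

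**Figure D3:**
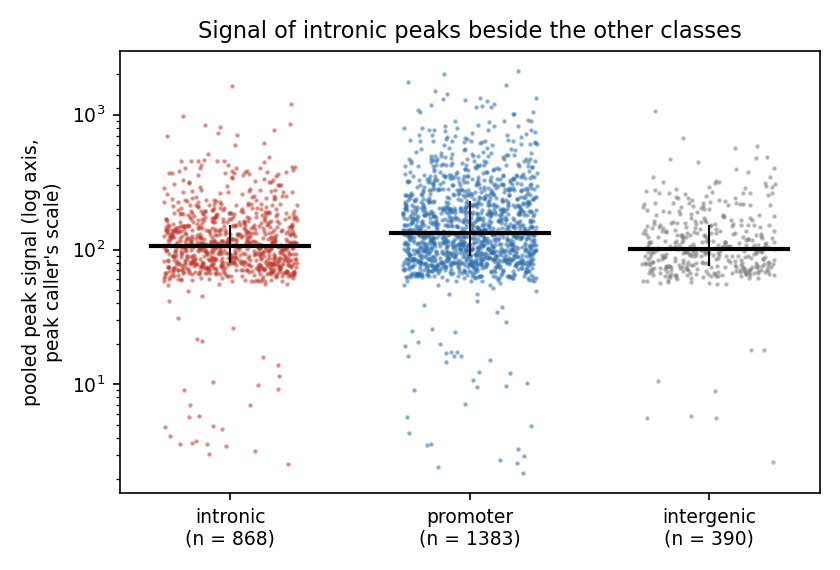
Pooled signal of every peak (log axis, the peak caller's scale) in the 868 intronic, 1383 promoter and 390 intergenic peaks, with the median as a bar and the middle 50% as a vertical line. The medians are 106, 132 and 100, and a sparse group in each class lies below 40.

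A sparse tail of 27 members had signals below 40. Each of the 27 overlapped a stronger conservative peak, 14 overlapped a peak in the own list of at least 1 replicate, and their summit GC exceeded the flanks by 2.84 points on average. Merging overlapping members left 842 separate regions. Without the peaks that overlap a stronger one, an alternative chosen after seeing the data, 841 members remained, and each comparison kept its direction and its side of the threshold.

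The strongest member lay in CG11050 on 2L, in an intron of 140 bp, with signals of 883 in replicate 1 and 760 in replicate 2. CG32772 on X followed with 640 in replicate 1 and 549 in replicate 2, and CG3726 on X with 475 in replicate 1 and 505 in replicate 2. These 3 genes are known here only by their annotation numbers. The peak in Tlk, which encodes a Tousled-like kinase, had 442 in replicate 1 and 417 in replicate 2. Trl, which encodes the GAGA factor, held a peak with 470 in replicate 1 and 381 in replicate 2. Replicate 1 was the higher in 4 of these 5 peaks, and replicate 2 in CG3726.

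The hosts of the next 15 peaks by pooled signal covered several kinds of regulator. CG32486 had a pooled signal of 814, norpA, the phospholipase C of phototransduction, 769, Hr3, a nuclear receptor of the ecdysone response, 729, and CG12769 706. NFAT had 692, Raf, the kinase between Ras and MEK, 621, CG9837 592, and for, a cGMP-dependent protein kinase, 510. The long noncoding RNA gene CR44810 had 484, Moe, which ties actin to the membrane, 463, Gug, an Atrophin corepressor, 457, and edl, an antagonist of ETS factors, 457. The list closed with rdx, a Cul3 adaptor in Hedgehog signalling, at 453, Hr4, another nuclear receptor of the ecdysone response, at 452, and Csk, a negative regulator of Src kinases, at 450. Each of the 20 peaks was present in the own list of both replicates.

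Intronic peaks were found in both replicates less often than promoter peaks. Both replicates' own thresholded lists held an overlapping peak for 423 of 868 intronic peaks (48.7%, 45.4 to 52.1) and 882 of 1383 promoter peaks (63.8%, 61.2 to 66.3), with an odds ratio of 0.54 (Fisher's exact test, two-sided, adjusted p = 9.56e-12). Over all peaks on the arms the share was 56.2%. Intergenic peaks had 180 of 390 (46.2%, 41.3 to 51.1), and the difference from the intronic share was not called (Fisher's exact test, odds ratio 1.11, adjusted p = 0.428). With the peaks held to a global IDR of 0.001 or less, the shares were 89.7% of 407 intronic peaks and 92.0% of the promoter peaks, and the difference was no longer called (Fisher's exact test, adjusted p = 0.196). IDR, the irreproducible discovery rate, is estimated from how consistently a peak ranks between lists. The stricter limit thus favours peaks present in both lists, so high shares in each class are built in. It cannot show whether the classes differ in this respect.

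Presence in both lists followed the signal. The members were put into 4 classes of 217 by signal. In the strongest class 212 of 217 were in both lists (97.7%), in the next 159 (73.3%), in the next 44 (20.3%) and in the weakest 8 (3.69%). Of the members not in both lists, 167 were in replicate 1's list alone, 71 in replicate 2's list alone and 207 in neither. Where both lists held the peak, replicate 1 had the higher signal in 315 of 423, with a median log2 ratio of replicate 1 to replicate 2 of 0.25 (SD 0.39 over peaks). The same ratio was 0.21 at promoter peaks and 0.25 at intergenic peaks, so the offset was shared by the classes. In the ranked lists, before any threshold, 845 of the 868 members had an overlapping candidate in both replicates.

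**Figure D4:**
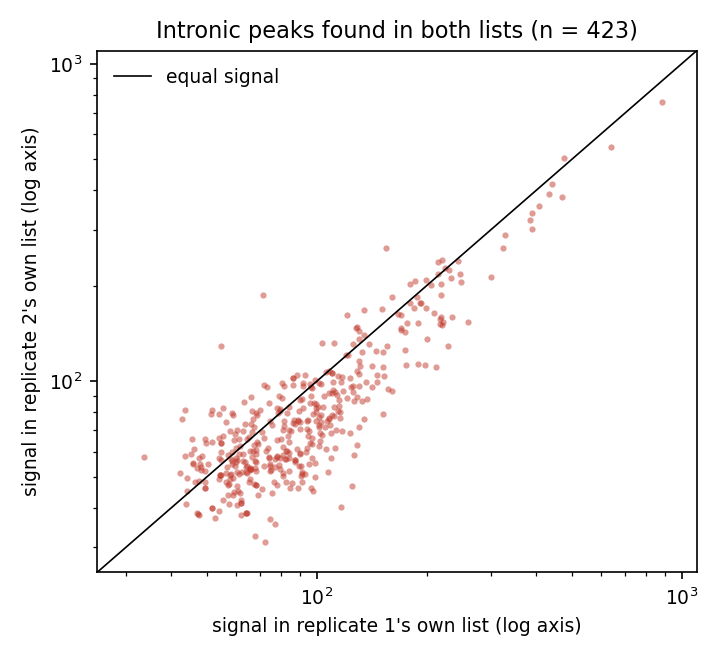
Signal in replicate 1's own list against signal in replicate 2's own list (both log axes) for the 423 intronic peaks found in both, with the line of equal signal. Most points lie below the line: replicate 1 had the higher value in 315 of 423.

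First introns held a larger share of the members than of the candidates. The intron was the first of every host transcript that spans the summit in 304 peaks (35.0%, 31.9 to 38.3), a later one in 349 (40.2%) and first in some transcripts but later in others in 215 (24.8%). Among the 43226 intronic candidates that missed the list, 10870 (25.1%, 24.7 to 25.6) lay in first introns, an odds ratio of 1.60 (Fisher's exact test, two-sided, adjusted p = 3.41e-10). With only the strongest peak of each host gene on each side, the difference was smaller. The shares were then 40.1% of 531 members and 35.3% of candidates, an odds ratio of 1.23 (Fisher's exact test, adjusted p = 0.0346). Measured against sequence, the members had 24.9 peaks per Mb of eligible first intron, 28.4 per Mb where transcripts differ and 11.8 per Mb of later intron. Eligible means intronic, exon-free and over 1000 bp from every start, and it covered 49.4 Mb.

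Members also lay closer to starts than the candidates, and the surplus in first introns was largest within 2000 bp of them. The median distance to the nearest start was 3879 bp for members and 6951 bp for candidates, and 25.6% of members and 12.97% of candidates lay within 2000 bp. At 1000 to 2000 bp from a start 53.2% of 222 members and 41.3% of candidates were in first introns. At 2000 to 5000 bp the shares were 37.9% of 290 members and 33.2% of candidates. At 5000 to 10000 bp they were 28.3% of 187 members and 26.8% of candidates, and beyond that 13.6% of 169 members and 12.9% of candidates. The contribution of distance was not tested. The nearest start belonged to the host gene itself for 595 members (68.5%).

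By position in the transcript, 439 members (50.6%) lay in introns between coding exons, 298 (34.3%) in introns of the 5′ untranslated region and 6 (0.691%) in introns of the 3′ untranslated region. Another 109 lay in introns that differ in kind between transcripts, and 16 in noncoding transcripts. Density was 22.2 peaks per Mb in introns of the 5′ untranslated region and 14.6 per Mb in introns between coding exons. Along the intron in the direction of transcription, 38.4% of members lay in its opening part, 35.6% in its middle and 26.0% in its closing part, each part being equal in length. The distance to the nearest exon had a median of 1945 bp and ran from 15 to 62628 bp. A summit inside more than 1 gene was found for 43 members, and 190 (21.9%) had a summit in soft-masked repeat or low-complexity sequence.

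The introns were long, though over all peaks they were shorter than those of the other candidates. The median length was 12.3 kb for members and 15.5 kb for candidates. Introns over 10 kb held 504 members (58.1%, 54.8 to 61.3) and 27735 candidates (64.2%, 63.7 to 64.6), an odds ratio of 0.773 (Fisher's exact test, two-sided, adjusted p = 0.00037). This direction depends on counting every peak: with 1 peak per host gene on each side, the share was 47.5% of 531 members and 24.3% of candidates, an odds ratio of 2.81 (Fisher's exact test, adjusted p = 6.62e-25). With a distance limit of 2000 bp the difference was not called (Fisher's exact test, odds ratio 0.917, adjusted p = 0.308). Per Mb of eligible sequence the members were densest in introns of 2 to 5 kb (26.1 peaks per Mb), and sparse below 1 kb (1.99 per Mb, 7 peaks) and above 100 kb (3.09 per Mb, 11 peaks).

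**Figure D5:**
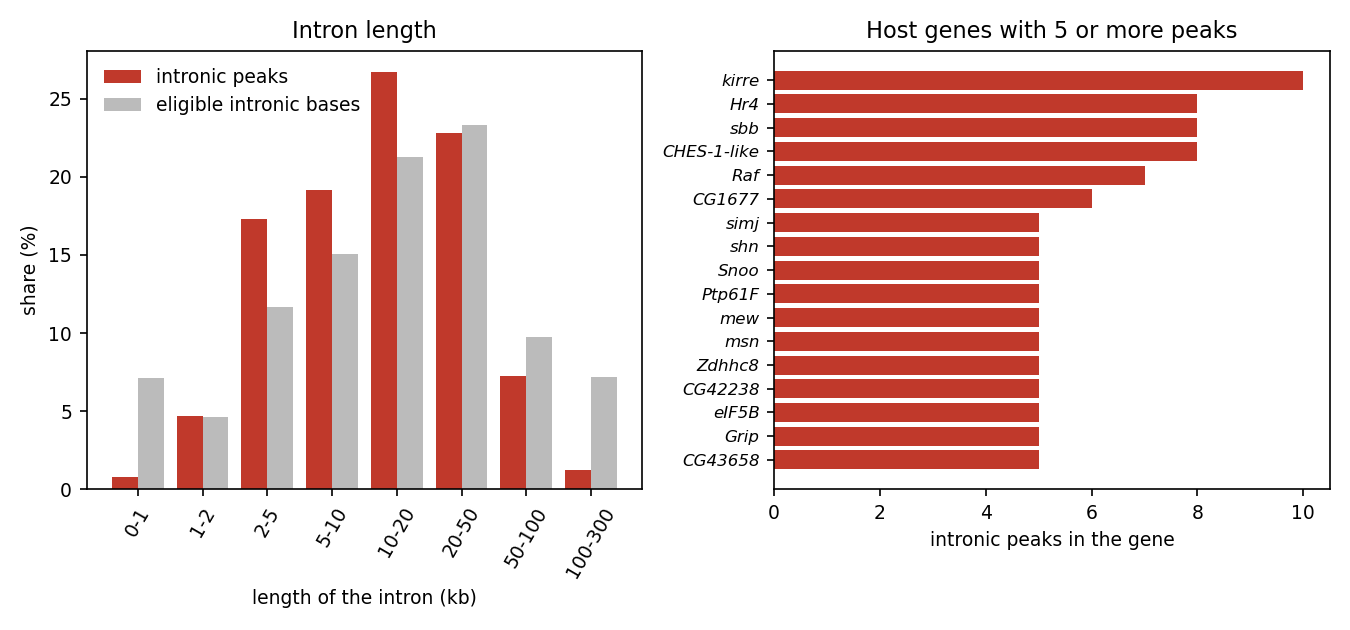
Left, share (%) of the 868 intronic peaks and of the eligible intronic bases by length of the intron (kb). Right, number of intronic peaks in each of the 17 host genes with 5 or more. Introns of 100 to 300 kb hold 1.27% of the peaks and 7.22% of the bases, and kirre leads the genes with 10 peaks.

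X carried more of the members than of the candidates. It held 250 members (28.8%, 25.9 to 31.9) and 8757 candidates (20.3%, 19.9 to 20.6), an odds ratio of 1.59 (Fisher's exact test, two-sided, adjusted p = 5.16e-09). Density was 26.7 peaks per Mb of eligible intron on X, against 14.1 on 3R, 15.5 on 2L, 17.6 on 2R and 17.7 on 3L. None lay on 4 or Y. The candidates numbered 0 on 4 and 296 on Y, so the lists allow no comparison on 4. The median signal on X was 104.4, within the range of 102 to 114 on the other arms with members, and 48.8% of the members on X were in both replicates' lists. X held 245 promoter peaks (17.7%) and 39 of the 390 intergenic peaks. Leaving X out kept the call for first introns, with an odds ratio of 1.69 (Fisher's exact test, adjusted p = 2.37e-09).

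The 868 peaks lay in 531 host genes, and many genes held several. Of the protein-coding genes with eligible intronic sequence, 521 of 6862 (7.59%) held a member. The other 10 hosts were noncoding genes. In 346 genes there was 1 peak, in 109 there were 2, in 34 there were 3, in 25 there were 4 and in 17 there were 5 or more. The 185 genes with at least 2 peaks held 522 members (60.1%), and in 136 of them at least 2 peaks shared an intron. In replicate 2's own list the rule gave 524 members and 98 genes with several, and in replicate 1's own list 758 members and 164 such genes. Neighbouring peaks of a gene were 3930 bp apart in the median, and 71 of 337 gaps were under 1000 bp.

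Hosts were long genes. Eligible sequence had a median of 17604 bp in protein-coding hosts and 486 bp in the 6341 protein-coding genes without a member. The share of genes with a member was 0.77% where eligible sequence was under 2000 bp, 15.7% at 5000 to 10000 bp and 42.6% at 50000 bp or more. A promoter peak at one of the gene's own starts was found for 103 hosts (19.8%) and for 956 of the genes without a member (15.1%). Among genes with 50000 bp or more, the share was 22.6% of 84 hosts and 7.08% of the rest. This was the widest gap of the length ranges. The share was 17.6% of hosts and 15.8% of the rest below 2000 bp, and 19.3% and 9.77% at 20000 to 50000 bp. These shares were not tested.

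The host with most members was kirre on X, which encodes an immunoglobulin protein of muscle founder cells. Its 10 peaks lay in 3 introns of the 5′ untranslated region over 339576 bp, with signals from 71.0 to 230, and 5 of them were in both replicates' lists. With 316517 bp of eligible sequence kirre had 0.316 peaks per 10 kb. By density CHES-1-like, a forkhead factor gene on X, stood far above it with 8 peaks in 11264 bp of eligible sequence, or 7.1 per 10 kb. All 8 lay in first introns, with pooled signals of 97.1, 103.7, 123, 370, 385, 63.2, 112 and 82.7 in genomic order, and the gene also had a promoter peak.

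Hr4, on X, had 8 peaks in 4 introns with signals of 88.9, 105, 372, 262, 189, 452, 75.5 and 164 in genomic order. Of these, 6 were in both replicates' lists. The peak at 452 had 225 in replicate 1 and 228 in replicate 2, while the peak at 189 had 54.6 in replicate 1 and 129 in replicate 2. That peak, at chrX:1953056-1953167, also carried the CTCF core in its summit window, whose GC content was 59.4%, against a mean of 32.5% over the members.

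Raf and sbb had their peaks in 1 intron each. In Raf 7 peaks lay within 20866 bp of an intron of 43637 bp in the 5′ untranslated region, with pooled signals of 621, 92.9, 448, 103, 119, 67.0 and 161 in genomic order. In sbb, a corepressor gene also called brakeless, 8 peaks lay within 17860 bp of an intron of 49364 bp, with signals between 71.8 and 380. CG1677 had 6 peaks with signals up to 171. A further 11 genes had 5 members each, and the 4 of them with the largest summed signal were simj, a gene of the NuRD complex (up to 372), shn, a zinc-finger factor of Dpp signalling (up to 331), Snoo, a Smad cofactor (up to 219), and Ptp61F, a tyrosine phosphatase (up to 250).

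Gene lists drawn up by symbol are described here by counts, beside 7.59% of all protein-coding genes with a member and 17.6 members per Mb of eligible sequence overall. Developmental transcription factors other than homeodomain genes held members in 19 of 48 eligible genes (39.6%), with 34.4 per Mb. The strongest were in Hr3 (729), Hr4 (452), shn (331) and aop (309), the last an ETS repressor of the Ras pathway. Homeodomain genes held members in 12 of 67 (17.9%), with 19.4 per Mb. They included zfh1 (425), a factor of the mesoderm, hth (197), a Hox cofactor with 4 peaks, Lim1 (140) and NK7.1 (131). Median eligible sequence was 21464 bp in the first of these lists and 12187 bp in the homeodomain list, against 629 bp over all protein-coding genes.

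Signalling genes held members in 18 of 77 (23.4%), with 30.1 per Mb. The peaks in aos, a secreted inhibitor of the EGF receptor (404), fz, a Wnt receptor (359), N, the Notch receptor (298), and wit, a BMP receptor (288), were the strongest. The peak in aos had 199 in replicate 1 and 209 in replicate 2, and the peak in N had 175 in replicate 1 and 113 in replicate 2. Chromatin and insulator genes had members in 7 of 53 (13.2%), yet the highest density of the lists, 40.4 per Mb, with a median eligible sequence of 526 bp. These were in Trl (841), the Polycomb genes Psc (266) and ph-p (160) and the Trithorax gene trx (160), among others.

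Genes of axon guidance and cell adhesion held members in 32 of 123 (26.0%), with 15.6 per Mb. Their strongest were in babos (274), the glypican gene dlp (248), kirre (230) and the semaphorin gene Sema1a (227). RNA-binding and splicing regulators had 11 of 45 (24.4%) and 10.2 per Mb, with Rbfox1 (154), shep (151), how (146) and Sxl (141). Ion channels and synaptic proteins had 10 of 90 (11.1%) and the lowest density of the lists, 7.37 per Mb, with Irk1 (242), dnc (213), scrib (182) and KCNQ (148). The shares of these lists all lay above the overall share of host genes, while their densities lay on both sides of the overall density. Median eligible sequence was 27204 bp for axon guidance, 12522 bp for ion channel, 8448 bp for signalling and 2974 bp for RNA-binding genes. Among protein-coding genes with 10000 to 20000 bp, 21.2% held a member, and with 20000 to 50000 bp 34.4%. Beside genes in the range of their own median, the axon guidance, homeodomain and ion channel lists lay lower and the others named lay higher. A median does not match a list for length, because it says little of the longest genes. RNA-binding genes, for instance, lay above the 7.49% of genes with 2000 to 5000 bp. Yet their 10.2 members per Mb lay below the 17.6 of all protein-coding genes. No list was tested.

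First introns, X and the homeodomain core showed no order with signal among the members, whereas the weakest class had the smallest GC difference and the TATAAA share was lower in each weaker class. None of these differences between classes was tested. From the strongest to the weakest of the 4 signal classes, first introns made up 40.1%, 29.5%, 38.7% and 31.8%, and X held 31.8%, 24.0%, 35.0% and 24.4%. The GC difference between summit and flanks was -13.6, -13.3, -13.2 and -8.22 points (SE 0.71, 0.705, 0.75 and 0.848). The weakest class included the 27 members below a signal of 40, which overlapped stronger peaks and whose summit GC exceeded the flanks by 2.84 points. TATAAA lay at 26.3%, 24.0%, 22.1% and 20.3% of summits. The homeodomain core lay at 9.22%, 12.4%, 10.6% and 12.4%.

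The limit of 1000 bp cut through a continuous range of distances. The members nearest to it lay at 1001 bp in magu (signal 79.1), at 1009 bp in Baldspot (308) and at 1014 bp in jbug (79.0). The intronic peaks just short of it lay at 999 bp in mAChR-A (95.9), at 996 bp in CG5521 (99.5) and at 995 bp in Fili (197).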

How the data were processed

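Per the submitters' listings, the authors made the peak lists from filtered alignments to dm6 against a control. No aligner or peak caller is named in the sources used here. The deposited lists hold a signal against the control, an IDR score, −log10 of a q value and, in ranked lists, −log10 of the global IDR. In the ranked list of the series 8 columns could not be assigned to a replicate and were not used. Replicates 1 and 2 are separate biological samples, and each has its own lists, used by an overlap of 1 bp.

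Genes, exons and 23694 starts on the arms came from Ensembl release 115, without transposable element entries, and sequence from RefSeq's dm6 assembly, whose arms contain every peak end. Introns were those of every host transcript over the summit, the shortest giving the length. Fisher's exact, exact McNemar and exact sign tests (SciPy 1.17.1, Python 3.11.15) were two-sided, with Benjamini-Hochberg adjustment within each family (7 Fisher tests, 28 motifs, 10 words) and a threshold of 0.05. The code was tested on simulated data. Wilson intervals (95%) cover counting error only. Members, lists and tests were chosen with earlier results of these data known. The text names hosts of the 20 strongest members, the 10 genes with most members, up to 4 hosts per list, 3 peaks on either side of the limit and members with motifs. Other genes were named after their values were seen. Counts for 1 gene list are not reported here. The files list peaks, so precision is limited by their number and by 2 replicates.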

Additional observations from a re-analysis of the deposited data

Results flagged for a closer look

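Some candidates of the ranked list met the authors' limit, a global IDR of 0.01 or less, but overlapped no conservative peak. There were 88 of these on the arms, and 21 met the location rule for intronic peaks. The 21 were counted among the 43226 candidates used as a reference above, and were not looked at separately there. Their pooled signal ran from 3.02 to 1910 with a median of 149, and 16 of the 21 lay on 3R. The strongest lay in ush on 2L (1910), above every member, followed by tara (661) and trx (615) on 3R. These genes were named after their values were seen. Per the listings, another input file went into the thresholded lists. It was not used here, and its part in these omissions was not tested.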

How the results depend on the processing

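Of 170 alternatives for the 14 comparisons, 147 kept the direction and the side of the threshold, or a count within 1.5 times. Lower GC at the summit, the surplus in first introns and on X and the lower signal against promoter peaks held in all of theirs. The odds ratio for first introns was lowest, at 1.23, with 1 peak per host gene. Each replicate's own list gave 524 to 758 members, 98 to 164 host genes with several and 0 to 9 words. At a global IDR of 0.001 or less the counts were 407 members, 75 such genes, 4 motifs against the control window, 0 motifs against promoter peaks and 2 words. There, by Fisher's exact test, presence in both replicates gave odds ratios of 0.752 against promoter peaks (adjusted p = 0.196) and 0.498 against intergenic peaks (adjusted p = 0.104), and signal against intergenic peaks gave 0.834. By the exact test, the signal odds ratio against intergenic peaks was 0.936 at the upper quartile, and 1.28 at 500 bp from starts (adjusted p = 0.0344). Keeping the strongest of each host gene (531 members) gave 1.68 for signal and 1.47 for both replicates against intergenic peaks; it picks members by signal and leaves intergenic peaks as they were, so higher values are built in and show no difference. With 1 per host gene long introns gave 2.81, with each gene that holds a candidate counted once in the reference. Without soft-masked summits both replicates against intergenic peaks gave 0.991. At 2000 bp long introns gave 0.917 (exact test, adjusted p = 0.308). Words passing numbered 3 at 2000 bp, 1 without masked summits and 1 for 6-letter words. Those words, transposable elements counted as genes, X left out and overlapped peaks left out were chosen after seeing the data. Windows of 100 bp to either side gave 4 motifs against promoter peaks. The stricter IDR leaves fewer peaks and favours those that rank consistently between lists. Apart from the built-in selection by signal, cause was not tested in any of these, the stricter IDR included. Of 124 alternatives for single motifs, 15 lost the call and none turned the direction.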
